A study of Mus musculus with 4 samples.

Results

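The genes described here belong to the ATF4 stress programme and to protein synthesis. They are 36 of the 24169 genes in the deposited table and were taken by symbol: 6 stress regulators, 5 stress effectors, 5 genes of amino acid transport and synthesis, and 20 genes of cytosolic aminoacyl-tRNA synthetases. All 36 were in the table, and all 36 passed the filter on low values (2 or more of the 4 libraries at 1 FPKM or above). RNA came from C8-D1A, an established clonal mouse astrocyte line. The 2 MBP libraries are of C8-D1A cells kept for 24 h with MBP at 1 mM, and the 2 control libraries are of untreated C8-D1A cells. The labels name the compound only as MBP and the series title speaks of DBP exposure, with neither abbreviation spelled out. No vehicle is named for either group. Gene positions below are on GRCm38, as the deposited table gives them.

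Cells that run short of amino acids, or that accumulate unfolded protein in the endoplasmic reticulum, phosphorylate the translation factor eIF2alpha. General protein synthesis then slows, while translation of the Atf4 transcript rises, and the ATF4 protein turns on genes for amino acid uptake, amino acid synthesis and tRNA charging. ATF4 is therefore controlled largely at translation, so the level of its transcript does not measure its activity, and its target genes are the usual readout. Aminoacyl-tRNA synthetases join each amino acid to its tRNA, and many of the cytosolic enzymes are themselves ATF4 targets.

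ATF4 binds, as a dimer with C/EBP proteins, to an element whose core reads TGATGCAA. RefSeq promoter windows on GRCm38.p6, each 250 bases before and 50 bases after a start site, were matched for 27 of the 36 genes. Those without a matched window are Nars, Slc7a5, Wars, Vars, Hars, Lars, Mars, Rars and Cars. TGATGCAA was found on either strand in 9 of the 27 genes (33.3%), against 279 of all 27025 genes with a window (1.03%) and 53 of the 8314 tested genes with a window (0.637%). The looser word TGATGNAA, which contains the first, was found in 12 of the 27 genes (44.4%) and in 4.51% of all genes. The cyclic AMP response element TGACGTCA overlaps neither word. It was found in 0 of the 27 genes, in 2.03% of all genes and in 3.85% of the tested genes with a window. With shares this low, a count of 0 does not set the 27 genes apart. The match is a description of letters in the window, and binding was not measured.

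The stretches below show the element with up to 26 bases on each side, ending at the start site, because it is a sequence that these promoters share. The genes were taken by symbol, but as known ATF4 genes and synthetases, so the share is no independent evidence. Capitals mark the element, written TTGCATCA where it lies on the opposite strand. Each is read 5′ to 3′ along the gene. They are the regulators Atf3 (chr1:191183410-191183469, minus strand) and Nupr1 (chr7:126625547-126625606, minus strand), the effectors Chac1 (chr2:119351023-119351082, plus strand) and Vldlr (chr19:27216794-27216853, plus strand), the proline synthesis gene Pycr1 (chr11:120643818-120643877, minus strand), and the synthetases Aars (chr8:111033704-111033763, plus strand) and Tars (chr15:11399659-11399699, minus strand). Asns (chr6:7693210-7693258, minus strand) is added for the looser word.
Atf3: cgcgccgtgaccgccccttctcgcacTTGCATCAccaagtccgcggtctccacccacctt
Nupr1: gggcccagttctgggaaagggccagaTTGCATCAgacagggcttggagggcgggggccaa
Chac1: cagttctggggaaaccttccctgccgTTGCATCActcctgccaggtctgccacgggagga
Vldlr: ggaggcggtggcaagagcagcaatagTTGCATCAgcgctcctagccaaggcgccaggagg
Pycr1: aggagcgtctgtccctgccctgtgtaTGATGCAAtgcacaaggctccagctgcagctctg
Aars: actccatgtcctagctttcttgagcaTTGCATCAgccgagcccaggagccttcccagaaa
Tars: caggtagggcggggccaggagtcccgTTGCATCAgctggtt
Asns: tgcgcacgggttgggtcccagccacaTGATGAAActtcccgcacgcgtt
Distances are from the RefSeq start site of the window. In Atf3, Nupr1, Aars and Vldlr the stretch lies within the span of the gene in the deposited table, which starts further upstream. For Asns the word shown and most of its stretch also lie within the span of the gene. The element lay at position -110 in both Atf3 and Nupr1, and at -112 and -103 in Aars and Pycr1, counted from the start site. In Yars and Iars it lay after the start site, and those stretches are not printed.

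The libraries were of like depth, at 23571000 to 25907000 reads recovered from the steps of the deposited values. The label of the cells was set against astrocyte markers: 3 of 10 listed markers passed the filter (S100b, Sox9 and Glul), while Gfap stood at 0.119 to 0.282 FPKM and Slc1a3 at 0 to 0.00452 FPKM. Markers of the oligodendrocyte lineage summed to 105.2 and 104.9 FPKM in MBP libraries, against 119.2 and 113.5 in control libraries, most of it from Sox10, with 4 of 7 genes found in the table tested. Markers of neurons summed to 25.9 and 25.5 FPKM in MBP libraries and 35.4 and 32.6 in control libraries, most of it from Tubb3, with 2 of 6 found tested and Snap25, Syt1 and Gad1 at 0 in at least 1 library. Microglial, fibroblast and endothelial markers summed to at most 7.75 FPKM in any library. The part of these differences in the results below was not tested. In bulk RNA, fewer cells that express a gene and less RNA per cell cannot be told apart.

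The comparison asked whether 24 h of MBP moved this programme. None of the 36 genes passed limma's moderated test at an adjusted p of 0.05, with adjusted p from 0.459 for Atf3 to 0.995 for Tars. Over all 12403 genes tested 0 passed (0%), so this count does not set the 36 genes apart. Their median log2 fold change was 0.0015, beside -0.0048 for all genes tested, with 18 genes on each side of 0. At an unadjusted p of 0.05 there was 1 of the 36, Atf3, lower in MBP, beside 9.68% of all genes tested (3.81% higher and 5.87% lower in MBP). Without MBP 2 the test at an adjusted p of 0.05 called 0 of the 36 and 0.00819% of all genes, and limma-voom on recovered reads called 0 of the 36 and 0.124% of all genes. The FPKM of the groups did not overlap for 16 of the 36, with 8 higher and 8 lower in MBP. Over all genes tested that share was 44.8%, with 21.3% higher and 23.5% lower, so 16 of 36 lies at the background.

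Intervals show what sizes the data leave room for. For the 20 synthetases the 95% intervals of limma, not adjusted for the number of genes, all lay between -0.28 and 0.28 on the log2 scale, a fold of 0.823 to 1.22. For all 36 genes they lay between -0.56 and 0.38, a fold of 0.678 to 1.30. The interval excluded 0 for 1 gene, Atf3. All folds are of log2(FPKM + 1) and understate the change of low genes. An exact test of 2 against 2 libraries cannot give a two-sided p under 0.333, so single genes were tested only in the fit across all genes.

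**Figure D1:**
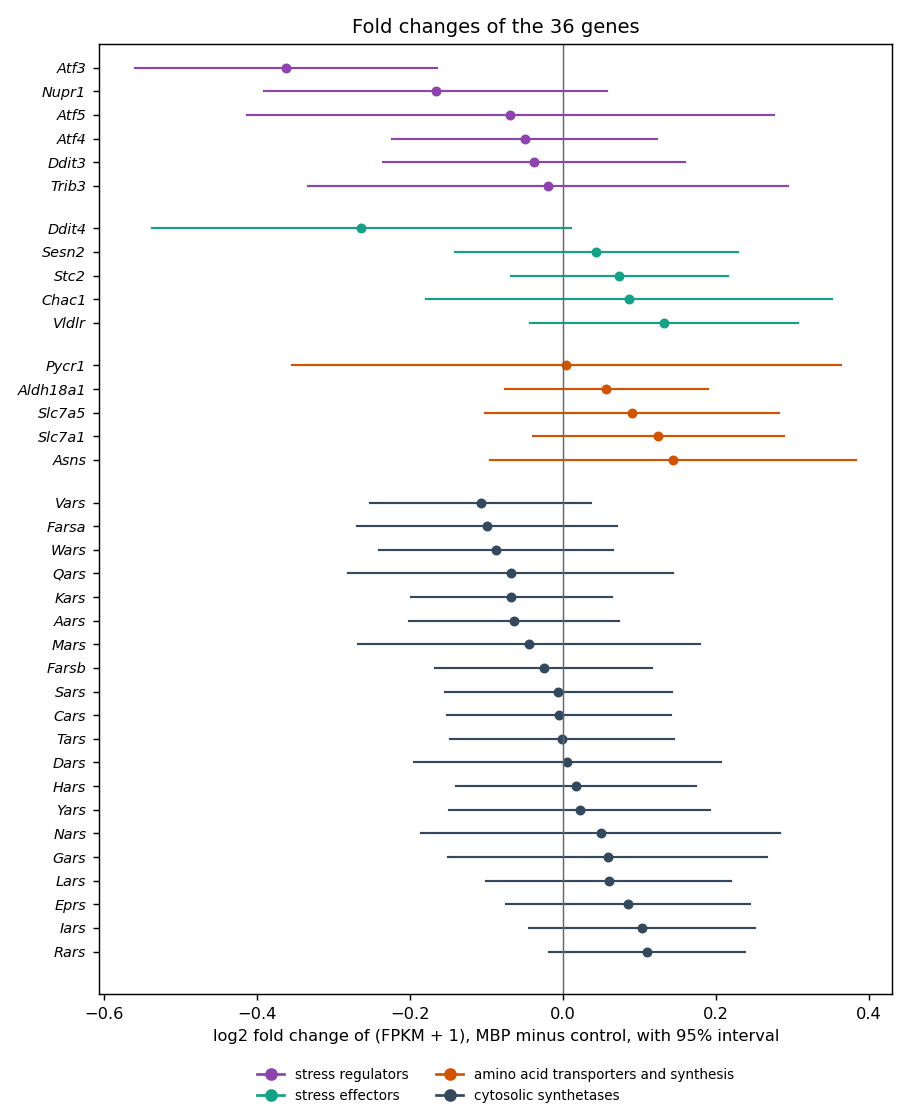
Log2 fold change of FPKM + 1, MBP minus control, for the 36 genes (points) with limma's 95% intervals (lines), 2 libraries a group. All 6 regulators lie left of 0 and all 5 genes of amino acid supply right of it, but the interval leaves out 0 for Atf3 alone.

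The stress regulators were led in level by Atf4 (chromosome 15, 80255184 to 80257540, plus strand), the transcription factor at the centre of the programme. Atf4 had 171.3 and 168.4 FPKM in MBP 1 and MBP 2, against 168.7 and 183.3 in control 1 and control 2. All 4 libraries were close together, the groups overlapped, and only 0.513% of the genes in the table had a higher mean level. The log2 fold change was -0.05 (95% interval -0.22 to 0.12, limma adjusted p = 0.799). This sign was not stable: it was positive once GC content and length were corrected for (0.03), after quantile normalization (0.061) and without control 2 (0.01).

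Atf5, a related factor that is also controlled at translation (chromosome 7, 44812256 to 44816658, minus strand), had 47.8 and 59.1 FPKM in MBP libraries and 50.9 and 61.2 in control libraries. Within each group the libraries lay further apart (log2 differences of 0.30 between the MBP pair and 0.26 between the control pair) than the group means did (-0.07, adjusted p = 0.873). Trib3, a pseudokinase that restrains ATF4 and AKT (chromosome 2, 152337422 to 152344032, minus strand), also varied more within groups than between them. It had 7.80 and 9.25 FPKM in MBP libraries and 7.77 and 9.56 in control libraries, a log2 fold change of -0.02 (adjusted p = 0.965).

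Ddit3 encodes CHOP, the factor tied to cell death under lasting stress (chromosome 10, 127290774 to 127296288, plus strand). It had 11.3 and 11.7 FPKM in MBP libraries, both inside the range of 12.6 and 11.1 in control libraries, and its log2 fold change was -0.04 (adjusted p = 0.88). The end of Ddit3 shares 68 exon bases with the synthetase gene Mars on the opposite strand, and the strand setting of the counting is not given, so reads there cannot be told apart.

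Atf3, a stress-induced repressor and activator of the same family (chromosome 1, 191170296 to 191218039, minus strand), had the lowest p of the 36 genes. It had 2.58 and 2.72 FPKM in MBP libraries (133 and 152 reads), against 3.64 and 3.74 in control libraries (191 and 190 reads). Both MBP libraries lay below both control libraries, by more than either pair differed within itself. The means were 2.65 ± 0.103 FPKM in MBP and 3.69 ± 0.071 in controls (SD, n = 2 each). On the log2 scale the difference was -0.36 with an SE of 0.0771 (limma adjusted p = 0.459). It did not pass over all genes, and its value stayed between -0.48 and -0.30 in every alternative that tested it, with a lowest adjusted p of 0.225. Nupr1, a small stress-induced chromatin protein, also had groups that did not overlap, at 4.749 and 4.499 FPKM in MBP libraries and 5.72 and 4.93 in control libraries (log2 fold change -0.17, adjusted p = 0.564). Here the control pair alone differed by as much as the groups did.

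The 6 regulators thus all had negative fold changes, with a median of -0.06. For 2 of 6 the groups did not overlap, with MBP lower, beside 23.5% of all genes tested (44.8% in either direction). Their median transcript GC content was 53.9%, beside 49.0% for all genes tested. The effectors, at 57.4%, and the amino acid supply genes, at 53.7%, had positive median log2 fold changes, of 0.07 and 0.09. The synthetases stood at 49.8%. The part of GC content in the sign was not tested. With the correction for GC content and length the median of the regulators stood at 0.0058, and Atf4, Atf5 and Trib3 had positive values. Atf3 and Nupr1 stayed negative, at -0.30 and -0.13.

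**Figure D2:**
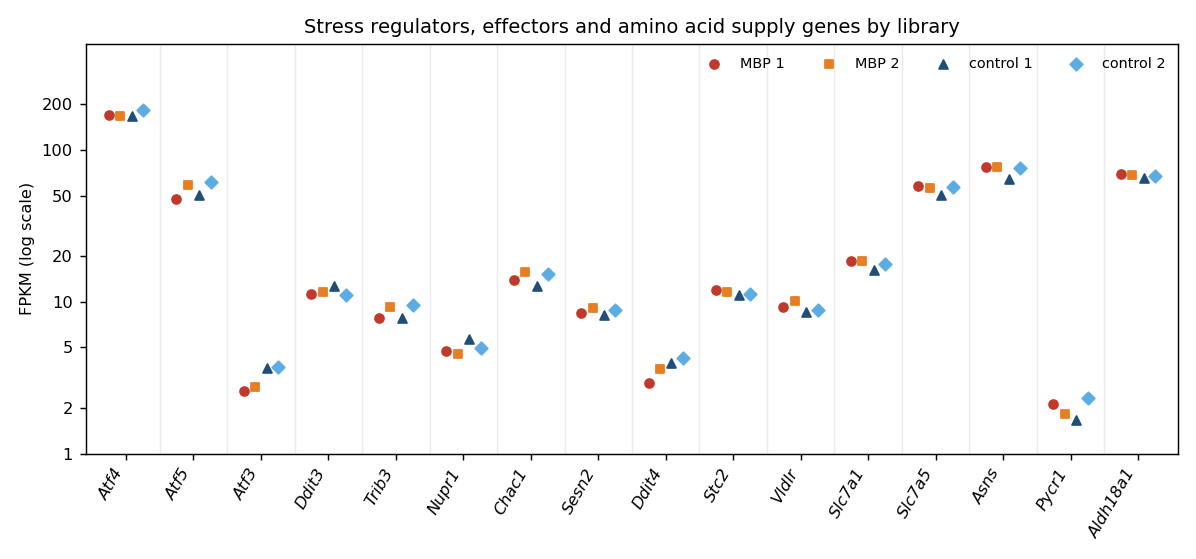
FPKM in each library (log axis) for the 16 regulators, effectors and amino acid supply genes, with MBP libraries left of control libraries for each gene. Levels run from about 2 FPKM for Pycr1 to over 168 FPKM for Atf4; both MBP points lie below both control points for Atf3, Nupr1 and Ddit4.

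Of the 5 effectors, 4 had positive fold changes and Ddit4 a negative value, with a median of 0.07. After the correction for GC content and length the median was 0.08. Ddit4 encodes REDD1, an inhibitor of mTORC1 (chromosome 10, 59949669 to 59951834, minus strand). It had 2.90 and 3.61 FPKM in MBP libraries (122 and 164 reads), against 3.93 and 4.25 in control libraries (168 and 176 reads). The groups did not overlap, but MBP 1 lay well below MBP 2, and the log2 fold change of -0.26 had a 95% interval of -0.54 to 0.01 (adjusted p = 0.517).

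Chac1, which breaks down glutathione and is a sensitive ATF4 target, had 13.9 and 15.8 FPKM in MBP libraries and 12.7 and 15.2 in control libraries (log2 fold change 0.09, adjusted p = 0.771). Sesn2, a leucine sensor that holds back mTORC1, had 8.39 and 9.16 FPKM in MBP libraries and 8.18 and 8.78 in control libraries (0.04, adjusted p = 0.842). In both genes the groups overlapped. Stc2, a secreted glycoprotein of the stress response, had 11.995 and 11.598 FPKM in MBP libraries and 11.1 and 11.2 in control libraries, and Vldlr, a lipoprotein receptor that ATF4 also induces, had 9.19 and 10.05 in MBP libraries and 8.51 and 8.85 in control libraries. For these both MBP libraries lay above both controls, with log2 fold changes of 0.07 and 0.13 and limma adjusted p of 0.658 and 0.558. With the correction for GC content and length the values were 0.08 for Stc2 and 0.05 for Vldlr.

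The 5 genes of amino acid supply all had positive log2 fold changes, with a median of 0.09, though that of Pycr1 was 0.0043 and its mean FPKM was 1.978 in MBP and 1.983 in controls. After the correction for GC content and length the median was 0.12. For 3 of 5 the groups did not overlap, with MBP higher, beside 21.3% of all genes tested. Asns, asparagine synthetase and a classic target of the amino acid response (chromosome 6, 7675169 to 7693254, minus strand), had 77.6 and 77.4 FPKM in MBP libraries, against 64.1 and 76.5 in control libraries. The MBP pair was nearly equal and only just above control 2, and control 1 stood apart from the other 3 libraries. The means were 77.5 ± 0.083 FPKM in MBP and 70.3 ± 8.74 in controls (SD, n = 2 each), and the log2 fold change was 0.14 (95% interval -0.10 to 0.38, limma adjusted p = 0.614). Without control 1 it was 0.02, and without control 2 it was 0.27.

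The transporters had their lowest value in control 1 too. Slc7a1, a carrier of arginine and lysine (chromosome 5, 148327410 to 148399904, minus strand), had 18.5 and 18.7 FPKM in MBP libraries and 16.2 and 17.8 in control libraries, a log2 fold change of 0.13 (adjusted p = 0.558). Slc7a5, the light chain of the large neutral amino acid exchanger LAT1 (chromosome 8, 121881150 to 121907694, minus strand), had 57.9 and 56.5 FPKM in MBP libraries and 50.4 and 57.1 in control libraries, a log2 fold change of 0.09 (adjusted p = 0.681). For Slc7a1 both MBP libraries lay above both controls, and for Slc7a5 control 2 lay between the MBP libraries.

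Proline synthesis is held here by Aldh18a1, which makes the precursor of proline and ornithine, and Pycr1, which carries out the last step in mitochondria. Aldh18a1 had 69.8 and 68.8 FPKM in MBP libraries, against 65.7 and 67.5 in control libraries (0.06, adjusted p = 0.706), and its groups did not overlap. Pycr1 was far lower in level, at 2.12 and 1.83 FPKM in MBP libraries and 1.66 and 2.31 in control libraries (log2 fold change 0.0043, adjusted p = 0.994). Both of its MBP libraries lay inside the range of the controls.

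Among the 20 synthetase genes, 9 had positive and 11 negative fold changes, with a median of -0.0032 beside -0.0048 for all genes tested. Folds ran from 0.928 for Vars to 1.08 for Rars. For 12 of the 20 the groups overlapped, while 3 lay higher (Rars, Iars and Eprs) and 5 lower in MBP (Vars, Farsa, Wars, Kars and Aars). Over all genes tested 44.8% did not overlap (21.3% higher, 23.5% lower), so 8 of 20 lies near the background. The median of the synthetases turned its sign with the setting: it was -0.04 without control 1, -0.02 without MBP 2, 0.04 without control 2 and 0.02 without MBP 1. It was also positive with TPM (0.02), quantile normalization (0.03), median-of-ratios scaling (0.0025) and the correction for GC content and length (0.0085). Their levels per length were high and ran from 14.7 FPKM for Qars to 150.1 FPKM for Nars as the mean over libraries.

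Nars, the asparagine enzyme, headed the order of levels with 150.7 and 154.2 FPKM in MBP libraries and 135.8 and 159.7 in control libraries. Gars, the glycine enzyme, which from 1 gene serves both the cytosol and mitochondria, followed with 86.0 and 88.0 in MBP libraries and 77.8 and 89.5 in control libraries. The lowest library of Nars lay above the highest of Gars, and the lowest of Gars above the highest of Aars. Below them came Aars, Iars, Tars, Vars, Lars, Rars, Hars, Kars, Sars and Mars, where each neighbour in the order overlapped the next in the range of its 4 libraries. Farsb stood alone below Mars, and Dars, Farsa, Yars, Cars, Eprs and Wars again overlapped from neighbour to neighbour. Qars, the glutamine enzyme, was lowest at 14.1 and 14.4 FPKM in MBP libraries and 13.9 and 16.2 in control libraries.

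Rars, the arginine enzyme (chromosome 11, 35808381 to 35834506, minus strand), had the highest fold of the synthetases. It had 50.8 and 50.7 FPKM in MBP libraries, against 46.5 and 47.4 in control libraries, with both pairs tight and apart from each other. The means were 50.7 ± 0.105 FPKM in MBP and 46.9 ± 0.648 in controls (SD, n = 2 each). On the log2 scale the difference was 0.11 with an SE of 0.0502 (limma adjusted p = 0.532). Iars, the isoleucine enzyme, had 64.4 and 63.4 FPKM in MBP libraries and 61.3 and 57.6 in control libraries (0.10, adjusted p = 0.579). Eprs, the joint enzyme for glutamate and proline, had 21.5 and 21.8 FPKM in MBP libraries and 21.3 and 19.5 in control libraries (0.08, adjusted p = 0.656). For Eprs the lower mean in controls came from control 2. With the correction for GC content and length Rars stood at 0.11, Iars at 0.08 and Eprs at 0.02.

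On the other side Vars, the valine enzyme (chromosome 17, 35000987 to 35016322, plus strand), had 52.6 and 50.2 FPKM in MBP libraries, against 54.4 and 56.5 in control libraries, a log2 fold change of -0.11 (adjusted p = 0.564). Its transcript had the highest GC content of the synthetases, at 60.9%, and with the correction for GC content and length the value was -0.02. Farsa, the alpha subunit of the phenylalanine enzyme, had 21.1 and 22.5 FPKM in MBP libraries and 22.6 and 24.3 in control libraries (-0.10, adjusted p = 0.623). Farsb, the beta subunit of the same enzyme, had 32.0 and 33.6 FPKM in MBP libraries and 32.9 and 33.8 in control libraries (-0.03, adjusted p = 0.889), and its groups overlapped. In the phenylalanine enzyme both subunits thus had negative values, of unequal size.

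Wars, the tryptophan enzyme, had 18.98 and 19.4 FPKM in MBP libraries and 19.7 and 21.2 in control libraries (-0.09, adjusted p = 0.633). Kars, the lysine enzyme, had 46.2 and 44.99 FPKM in MBP libraries and 48.2 and 47.4 in control libraries (-0.07, adjusted p = 0.662). Aars, the alanine enzyme, had 64.5 and 63.6 FPKM in MBP libraries and 68.4 and 65.7 in control libraries (-0.06, adjusted p = 0.683). In these 3 genes both MBP libraries lay below both controls, by less than 0.1 on the log2 scale between the means.

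The other synthetases had groups that overlapped, with log2 fold changes from -0.07 for Qars to 0.06 for Lars. Lars, the leucine enzyme, had 51.7 and 55.9 FPKM in MBP libraries and 50.7 and 52.4 in control libraries (adjusted p = 0.737). Mars, the methionine enzyme, had 43.8 and 42.4 FPKM in MBP libraries and 41.1 and 48.1 in control libraries (-0.04, adjusted p = 0.874), with both MBP libraries inside the wide range of the controls. Dars, the aspartate enzyme, Hars, the histidine enzyme, and Yars, the tyrosine enzyme, stood at 0.0055, 0.02 and 0.02. Cars, Sars and Tars, the cysteine, serine and threonine enzymes, stood at -0.0050, -0.0058 and -0.0014.

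**Figure D3:**
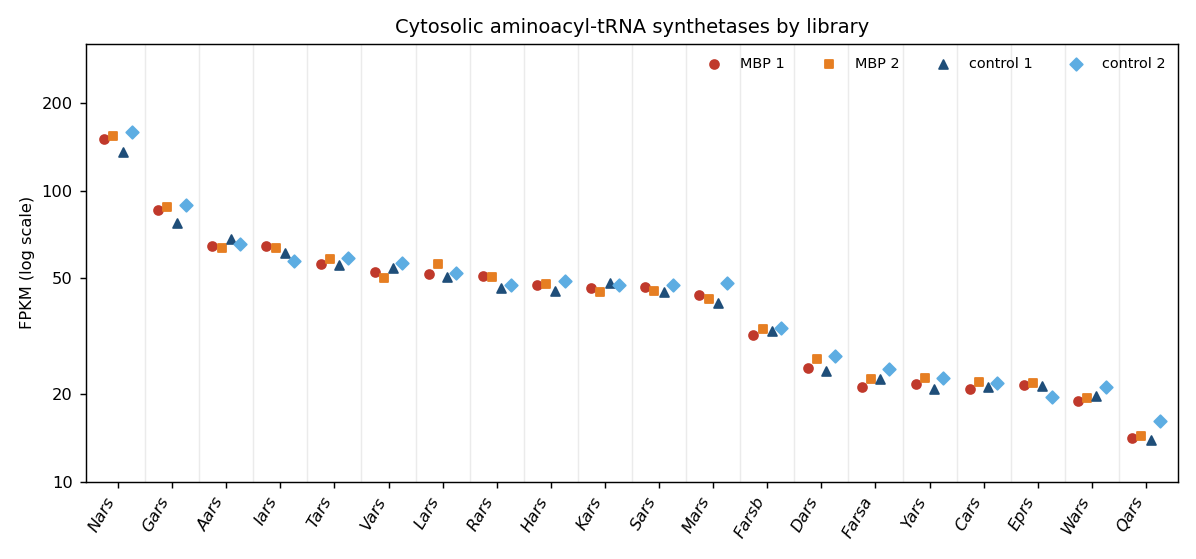
FPKM in each library (log axis) for the 20 cytosolic synthetase genes, ordered by mean level, with MBP libraries left of control libraries for each gene. Nars stands above the rest at 135.8 to 159.7 FPKM and Qars lowest at 13.9 to 16.2 FPKM; control 1 is the lowest library for 11 of the 20.

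Synthetases were also compared by their place in the cell. In animal cells 8 of these genes (Dars, Eprs, Iars, Kars, Lars, Mars, Qars and Rars) encode enzymes of the multisynthetase complex. Their median log2 fold change was 0.03, with 3 of 8 higher and 1 of 8 lower without overlap. The 12 genes outside the complex had a median of -0.0054, with 0 of 12 higher and 4 of 12 lower. The shares over all genes tested were 21.3% higher and 23.5% lower, and both subgroups together lay near the 44.8% of either direction. After the correction for GC content and length the medians were 0.0085 and 0.0072. The difference between these subgroups was not tested. By structural class, the 10 class I genes had a median of 0.0086 and the 10 class II genes a median of -0.0036. Eprs, the joint enzyme for glutamate and proline, was counted in class I alone.

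Several synthetase genes share exon bases with a neighbour on the opposite strand, so their reads are uncertain if counting ignored strand. Farsb shares 248 bases with Sgpp2, Cars 211 with Gm15580, Hars 195 with the mitochondrial enzyme gene Hars2, and Yars 30 with C77080. Atf5 shares 82 bases with Nup62 and with Il4i1.

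The libraries of a group differed from each other in a way these genes shared. Control 2 had a higher value than control 1 for 30 of the 36 genes, where 49.5% of all genes tested did. Control 1 was the lowest library for 21 of the 36 genes (58.3%), beside 20.9% of all genes tested, and control 2 was the highest for 19 of the 36 (52.8%), beside 32.3%. By role, control 2 was higher for 4 of 6 regulators, 5 of 5 effectors, 5 of 5 amino acid supply genes and 16 of 20 synthetases. The median log2 difference between the controls was 0.09 over the 36 genes and -0.0020 over all genes tested. Part of the pattern was seen in other lists too. Among the other ATF4 targets described below, control 2 was higher for 16 of 23 and control 1 lowest for 12 (52.2%), with a median difference of 0.11. For the mitochondrial synthetases these were 10 of 17 and 7 (41.2%), with 0.07. For the genes around eIF2alpha they were 9 of 14 and 4 (28.6%), with 0.05. In these lists, in the same order, control 2 was the highest library for 39.1%, 29.4% and 50% of genes, beside 32.3% of all genes tested. MBP 2 was higher than MBP 1 for 22 of the 36 genes (61.1%), beside 55.8% of all genes tested. The pattern between the controls was seen after the data were examined and was not tested, and the labels give no batch that it could follow.

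For the amino acid supply genes the size of the group difference depended on which control was kept. Their median deviation from the mean of each gene was 0.06 and 0.03 in MBP 1 and MBP 2, against -0.13 and 0.04 in control 1 and control 2. Control 2 thus lay beside the MBP libraries, and control 1 was the lowest library for all 5 genes. Without control 1 their median log2 fold change was 0.02, and without control 2 it was 0.18. The regulators had another order, at -0.09 and -0.02 in the MBP libraries against 0.04 and 0.11 in the controls. Without control 1 their median was -0.13, and without control 2 it was -0.06. For the synthetases the medians were -0.02 and 0.02 in the MBP libraries and -0.04 and 0.05 in the controls. For 9 of the 20 synthetase genes both MBP libraries lay inside the range of the 2 controls. The share of all genes tested with that order was not counted, so this number has no background beside it.

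**Figure D4:**
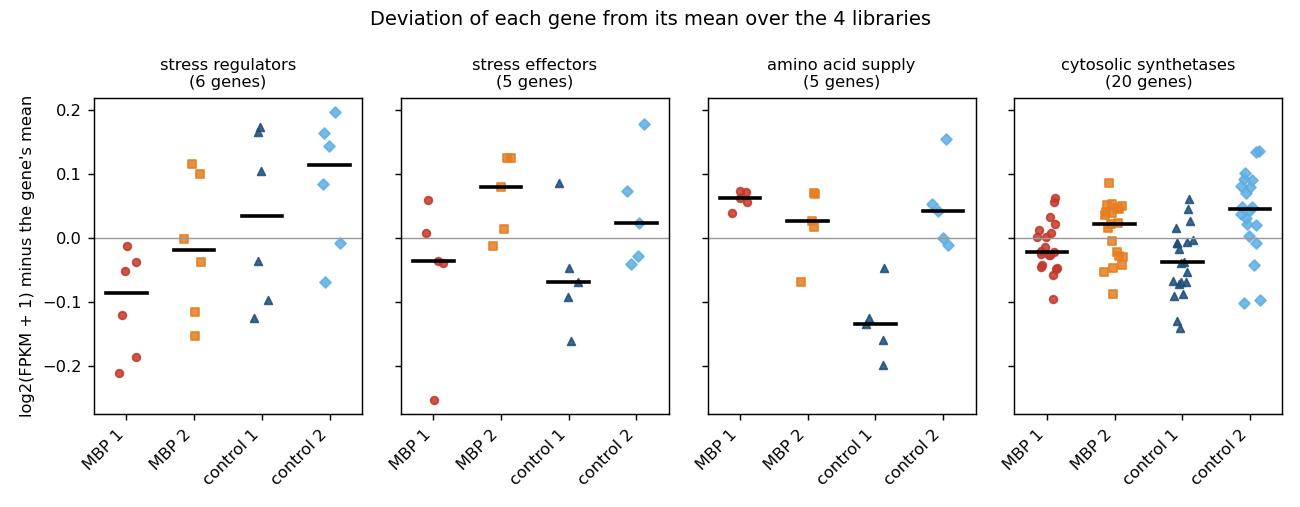
Deviation of log2(FPKM + 1) from the mean of each gene over the 4 libraries, by role, with MBP libraries left and control libraries right; points are genes and bars are medians. Control 1 is the lowest library for all 5 amino acid supply genes (median -0.13), and control 2 has the highest median for the regulators (0.11) and synthetases (0.05).

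Expression was then set against the promoter element. The 9 genes with TGATGCAA in the window had a median log2 fold change of 0.0043, from -0.36 for Atf3 to 0.13 for Vldlr, with 5 positive and 4 negative. The other 18 genes with a window had a median of -0.01, with 8 positive and 10 negative. They include Asns, Gars and Trib3, which hold only the looser word and stood at 0.14, 0.06 and -0.02. Genes whose stretches are printed above thus lay on both sides of 0. Among those with the element at -112, -110 or -103, Aars, Atf3 and Nupr1 had negative values and Pycr1 a positive value. With so few genes this is a description of single promoters.

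Other genes of the pathway gave the surroundings of this result. Upstream stand the kinases of eIF2alpha, its phosphatases and the factors they act on, of which 14 of 14 listed genes were tested. Their median log2 fold change was 0.02, 0 passed the test, and 3 lay higher and 3 lower without overlap. Over all genes tested, 21.3% lay higher and 23.5% lower without overlap (44.8% in either direction). Eif2ak3 (PERK, the sensor of the endoplasmic reticulum) had 4.74 and 5.52 FPKM in MBP libraries and 5.64 and 5.82 in control libraries (-0.14, limma adjusted p = 0.601). Eif2ak4 (GCN2, which senses uncharged tRNA) had 9.67 and 9.42 FPKM in MBP libraries and 9.66 and 8.76 in control libraries (0.05, adjusted p = 0.815). Eif2ak1 (HRI, the heme-regulated kinase) had 15.2 and 14.7 in MBP libraries and 14.1 and 13.8 in control libraries (0.09, adjusted p = 0.592), and Eif2ak2 (PKR, activated by double-stranded RNA) stood at 0.12 (adjusted p = 0.674). Ppp1r15a (GADD34, the stress-induced phosphatase subunit and an ATF4 target) had 13.5 and 11.5 FPKM in MBP libraries and 11.97 and 11.64 in control libraries (0.07, adjusted p = 0.776). The lowest unadjusted p of this list belonged to subunits of the exchange factor eIF2B: Eif2b4 at -0.17 and Eif2b5 at -0.13, with Eif2b3 at 0.13. These values are of transcripts, and the kinases act through phosphorylation, which was not measured.

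Other targets of ATF4 were looked at in the same way. Of 26 listed genes found, 23 passed the filter, 0 passed limma's test, and the median log2 fold change was 0.07. At limma's unadjusted p of 0.05 there were 4 of the 23 higher and 2 lower in MBP. The shares over all genes tested were 3.81% and 5.87%. For 11 of the 23 the groups did not overlap with MBP higher, and for 4 with MBP lower, beside the 21.3% and 23.5% of all genes tested. Slc7a11, the cystine carrier, had 9.64 and 9.81 FPKM in MBP libraries, against 7.77 and 7.86 in control libraries (0.28, limma adjusted p = 0.457). Aldh1l2, a mitochondrial folate enzyme, had 36.9 and 36.5 in MBP libraries and 31.3 and 30.7 in control libraries (0.24, adjusted p = 0.457). In both the pairs were tight, and both MBP libraries lay above both controls. Herpud1, a factor of protein quality control in the endoplasmic reticulum that also answers to ATF6 and XBP1, had 19.7 and 20.6 FPKM in MBP libraries, against 24.2 and 26.5 in control libraries (-0.31, adjusted p = 0.464). Cebpb, a partner of ATF4 on the element shown above, had 1.89 and 1.46 FPKM in MBP libraries and 2.62 and 3.19 in control libraries (-0.55, adjusted p = 0.493). Cth, the enzyme that makes cysteine from cystathionine, had the highest log2 fold change of the list and was picked out after its values were seen. It had 4.07 and 3.82 FPKM in MBP libraries and 2.35 and 3.18 in control libraries (0.40, adjusted p = 0.503).

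The mitochondrial synthetases form a natural counterpart, since they charge tRNA for the mitochondrial genome. All 17 listed genes were tested and 0 passed. Their median log2 fold change was 0.01, and the groups did not overlap for 2 with MBP higher and 2 with MBP lower. Beside these counts stand 21.3% and 23.5% of all genes tested (44.8% in either direction). They were expressed at lower levels than the cytosolic enzymes, at 1.79 to 15.0 FPKM with a median of 3.78, beside a median of 46.4 for the cytosolic list. Wars2 had the lowest unadjusted p, at 3.17 and 2.87 FPKM in MBP libraries and 2.74 and 2.34 in control libraries (0.18, limma adjusted p = 0.566), followed by Pars2, Ears2 and Rars2 at -0.13, -0.13 and 0.06. The scaffolds of the multisynthetase complex had values of both signs: Aimp1 stood at 0.15, Eef1e1 at -0.12 and Aimp2 at -0.02, with limma adjusted p of 0.517, 0.567 and 0.931.

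**Figure D5:**
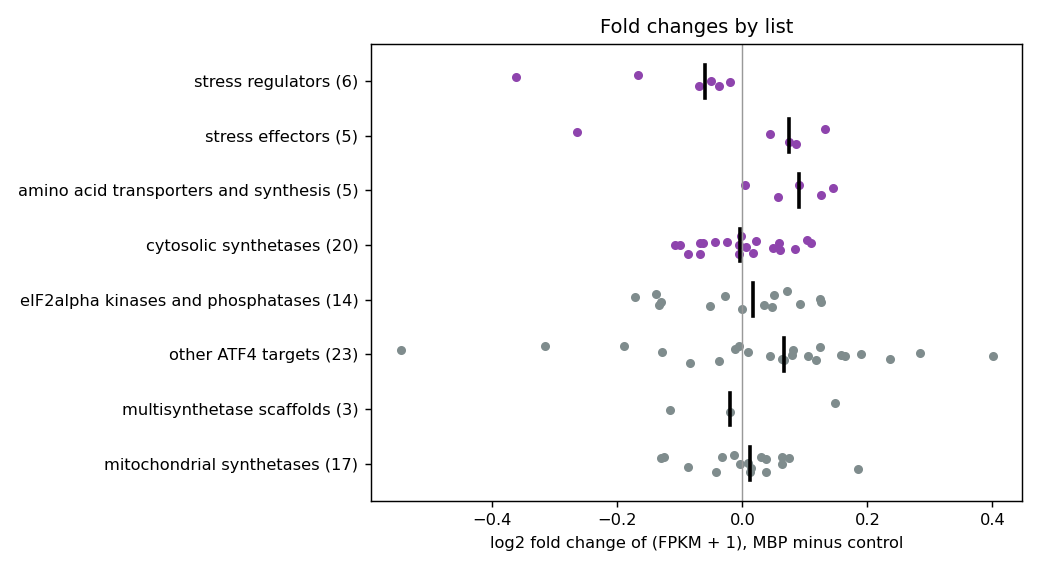
Log2 fold changes of FPKM + 1, MBP minus control, for the tested genes of each list (points; number of genes in brackets) with the median of the list (bar). The cytosolic and mitochondrial synthetases centre on 0 (medians of -0.0032 and 0.01), and the other ATF4 targets run from -0.55 for Cebpb to 0.40 for Cth.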

How the data were processed

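Total RNA of 4 samples was depleted of ribosomal RNA and made into directional libraries, per the labels' protocols. The build GRCm38 and the tools HISAT2 and bcl2fastq are listed, with no role, per the submitters' processing notes. For their versions, and for the counting program, annotation and strand setting, nothing is stated in the sources used here. What the authors deposited is 1 table with an FPKM value (reads scaled to gene length and library depth) for each gene and sample. Each column's name was matched to a sample title. Accession order gave the replicate numbers 1 and 2, which pair nothing. No label says that the samples of a group were separate cultures, so the p-values reflect spread that may be technical.

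Values were tested as log2(FPKM + 1) with limma 3.58.1 in R 4.3.3 (eBayes with a trend, two-sided, MBP minus control). The 12403 genes at 1 FPKM or more in 2 or more samples entered, with Benjamini-Hochberg adjustment over all of them and a threshold of 0.05. The test was checked on simulated data. The 36 genes, the other lists and the tests were chosen with earlier results of these data known. All 36 genes are named, and from each other list up to 4 with the lowest unadjusted p, plus the eIF2alpha kinases, Ppp1r15a and the scaffolds; Cth and those named as not overlapping came after.

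Reads were recovered as FPKM times exon length (GENCODE M21) divided by the step of single-exon genes. Within 0.05, 98.5% to 98.8% of single-exon values and 93.8% to 94.0% of all values under 1000 reads were whole, and 31 of the 36 genes gave whole reads in each library. Read numbers cover counting error only. Listed genes with no value, such as Gdf15, were not analysed here. Promoters are from RefSeq (GRCm38.p6).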

Additional observations from a re-analysis of the deposited data

How the results depend on the processing

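Limma's test was rerun with other pseudocounts, filters, scalings and spread models, with protein-coding genes alone, with a correction for GC content and length, with limma-voom on recovered reads, and without each library. None of the 36 genes passed in any of these (lowest adjusted p 0.225, Atf3). Over all genes the count was 0, except 18 of 14518 with limma-voom (0.124%) and 0 to 1 without single libraries, where the 1 gene (0.00819%) came without MBP 2. The median log2 fold change of the regulators was 0.0058 with the GC and length correction, and -0.13 to -0.041 without single libraries (-0.13 without control 1 or without MBP 2). That of the effectors was -0.0016 to 0.10, the lowest without control 1. The causes were not tested.

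Of 536 values of single genes under these settings, 491 kept their sign and 45 turned it, 27 of them without a library. The sign held for 18 of the 36 genes throughout. With TPM, Trib3 was at 0.00072, Cars at 0.017, Sars at 0.016 and Tars at 0.021. With median-of-ratios scaling, Cars was at 0.00062 and Tars at 0.0044. With quantile normalization, Atf4 was at 0.061, Pycr1 at -0.0014, Cars at 0.00074, Sars at 0.030 and Tars at 0.043. With the GC and length correction, Atf4 was at 0.030, Atf5 at 0.049, Trib3 at 0.075, Cars at 0.041, Dars at -0.039, Mars at 0.0016 and Sars at 0.030. Without single libraries the values ran for Ddit3 from -0.12 to 0.049, Chac1 from -0.030 to 0.20, Sesn2 from -0.013 to 0.10, Pycr1 from -0.15 to 0.16, Dars from -0.078 to 0.089, Gars from -0.041 to 0.16, Hars from -0.040 to 0.075, Nars from -0.067 to 0.17, Yars from -0.038 to 0.082, Atf4 from -0.11 to 0.00996, Atf5 from -0.22 to 0.082, Trib3 from -0.15 to 0.11, Cars from -0.044 to 0.034, Mars from -0.16 to 0.068, Qars from -0.17 to 0.034, Sars from -0.047 to 0.035, Tars from -0.038 to 0.036 and Farsb from -0.060 to 0.0093. The higher value in control 2 than in control 1, an alternative chosen after seeing the data, held for 26 to 30 of the 36 genes under other scalings.

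No paired analysis was possible because the groups share fewer than 2 replicate numbers: the titles of control 2 and MBP 2 both end their number in 3, and those of control 1 and MBP 1 differ. With 2 libraries a group, leaving out 1 assumes that the lone library varies like the other group.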
